A study of Mus musculus with 6 samples.

Results

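The sense probes described here were the 43 of 404 named sense probes that varied most among 4 mammary tumors of GRS/A mice. They were chosen by the tumor signals alone: a signal of at least 20 in all 4 tumors, which 364 probes had, and a highest tumor signal at least 8 times the lowest. Because these signals selected the probes, their spread among the tumors is given as a description with no test. The tests given for members set these same tumor signals against the normal glands. The choice did not use the glands, but it did use the tumor side, so these tests are not independent of the choice. All 43 probes could be tied to the authors' value table through a single matching row.

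GRS/A is an inbred mouse strain whose mammary tumors are induced by mouse mammary tumor virus (MMTV). RNA of 4 such tumors and of 2 normal mammary glands of the same strain was hybridised to a custom Agilent array of 60-base probes, 1 array and 1 sample each. The RNA was copied into Cy3-labelled first-strand cDNA with random primers, so that a sense probe reads the mRNA strand and a probe of the antisense set (AFAS) reads the opposite strand. Neither the ages of the mice nor whether each sample came from a separate mouse was stated, and no treatment was named. The extraction protocol in the labels names brain for every sample, while titles and methods name mammary tissue. The luminal keratin Krt18 and the basal keratin Krt14 had signals above 20 on all 6 arrays. Drd4, the 1 measured gene of the nerve list, did so as well. Because 364 of 404 sense probes were at 20 or more in all tumors, these signals do not decide the tissue. No adipocyte or milk protein gene of the marker lists had a sense probe. Arrays of tumors 3 and 4 lay on the same slide, and tumors 1 and 2 each had a separate slide. The slides that carried the normal glands were not analysed, so tissue and slide cannot be told apart.

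MMTV is a retrovirus that integrates into the genome of mammary cells and can switch on neighbouring growth genes of the Fgf, Wnt and Notch families. A mammary tumor also holds stroma, vessels and leukocytes besides its epithelium. In such bulk RNA, fewer cells of a type and less RNA per cell cannot be told apart. The integration sites of these tumors were not measured here.

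The following probe stretches are shown because their signals carry the widest tumor ranges or because both strands of the same stretch were measured. They run 5′ to 3′ on the mRNA strand, and capitals mark bases whose reverse complement lies in an AFAS probe of the same gene, found through shared words of 12 bases. Of the probes of Gcm1, Msx2, Fgf8, Cxcl2 and Ccnd1 a part is shown.
Gcm1: ttctcactcaagctgttgacaatgccagtg
Msx2: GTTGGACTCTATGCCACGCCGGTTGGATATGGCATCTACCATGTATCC
Fgf8: aagaactttacaaatccagccccaaactac
Cxcl2: CCTCGCTGTCTGAGAGTTCACTTATTTATt
Prtn3: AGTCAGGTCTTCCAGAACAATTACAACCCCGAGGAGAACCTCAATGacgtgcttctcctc
Epor: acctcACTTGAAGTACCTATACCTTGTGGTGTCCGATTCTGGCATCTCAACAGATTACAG
Ccnd1: CTGTTAGGTTCTAGTGTTCCGTCTTGTTTt
The GC content of the 43 probes ranged from 38.3% to 56.7% with a median of 45.0%, against a median of 43.3% over all 404 sense probes. The word ATTTA, searched on the mRNA strand only, occurred in 4 of the 43 probes (9.30%) and in 6.44% of all sense probes.

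The ratio of highest to lowest tumor ranged from 8.03 to 93.6 with a median of 12.4, against a median of 3.01 over the 364 sense probes with all tumors at 20 or more. Just inside the threshold lay Il6st at 8.41, Ccnd1 at 8.05 and Gdnf at 8.03. Just outside it lay Ezr at 7.47, Kitl at 7.46 and Cdkn1c at 7.43. The highest signal was in tumor 1 for 12 members, in tumor 2 for 12, in tumor 3 for 9 and in tumor 4 for 10. The lowest signal was in tumor 3 for 24 members, in tumor 2 for 9, in tumor 4 for 7 and in tumor 1 for 3. Tumor 3 was also the lowest for 39.6% of the 321 other probes with all tumors at 20 or more. The most frequent combination was highest in tumor 2 and lowest in tumor 3, with 11 members: Cd14, Cd7, Mmp2, Pou4f2, Mcpt4, Csf3r, Ighmbp2, Hoxb9, Scn7a, Blk and Gdnf. Another 8 members were highest in tumor 1 and lowest in tumor 3: Mybl1, Cxcl2, Ikzf1, Abcg1, Relb, Map2k4, Dlg4 and Cxcr2. A single tumor stood at least 4 times above each of the others for 14 members, and a single tumor stood at least 4 times below each of the others for 9. Between tumors 3 and 4, which shared a slide, 13 members differed by at least 8 times.

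Each tumor had a single array, so the spread of a repeated hybridisation is unknown, and the number of arrays limits the precision. The scanner software's own error of the signal was at most 21.1% of the value for any member in any tumor, reached by Cxcr2, with a median over members of 10.3%. None of the members' spots was saturated, and all were well above background in the 4 tumors. The software flagged 1 or more tumor spots of 6 members (14.0%), against 6.23% of the other probes at 20 or more. A flag here means a non-uniform spot or a population outlier. The 6 members were Gcm1 in tumor 4, Rxrg and Prkcq in tumor 3, Hoxb9 and Dlg4 in tumor 2, and Bmp4 in tumors 2 and 3. Without flagged spots, 39 members kept a range of at least 8 times. The 4 that did not were Rxrg with 2.19, Prkcq with 3.37, Bmp4 with 2.36 and Hoxb9 with 1.12. For these 4 genes the wide range rested on flagged spots.

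Transcription factors and other nuclear proteins made up 12 of the members. Gcm1, a factor best known from placental trophoblast, had the widest range of all, with signals of 215, 871, 31.0 and 2901 in tumors 1 to 4 and of 54.4 and 56.6 in the normal glands. Its highest and lowest values were the tumors on the shared slide, and without the flagged spot of tumor 4 its range was 28.1. Msx2, a homeobox factor active in developing mammary epithelium, had signals of 343, 124, 251 and 6498 against 56.9 and 60.3. Tumor 4 was 19.0 times as high as the next tumor, and both normal glands lay below all tumors.

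Mycn, a proto-oncogene of the Myc family, had tumor signals of 383, 69.7, 1404 and 82.3 and normal signals of 132 and 224. It was high in tumor 3, and the normal glands lay inside the tumor range. Mybl1, a Myb family factor, read 10143 in tumor 1 but 1126, 468 and 1435 in tumors 2 to 4, with 718 and 1533 in the normal glands. Tumor 1 was thus set apart, by a factor of 7.07 over the next tumor. Etv4, an Ets family factor, was highest in tumor 3 and lowest in tumor 2, with a range of 8.61.

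Rxrg, a retinoid X receptor that pairs with other nuclear receptors, had signals of 119, 57.2, 1147 and 54.2 in the tumors and of 79.4 and 70.8 in the normal glands. The high value was the flagged spot of tumor 3. Esr1, the estrogen receptor alpha of hormone-responsive luminal cells, read 886, 2654, 731 and 7584 in the tumors and 4339 and 5416 in the normal glands. Only tumor 4 exceeded the normal glands, which were at least 5.93 times the lowest tumor.

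Hoxb9, a homeobox factor, had 306, 2835, 282 and 315 in the tumors, of which the second value was flagged, and 1441 and 1040 in the normal glands. The 3 unflagged tumors differed by 1.12 times at most and lay below both normal glands. The remaining nuclear members were Ikzf1, a lymphocyte zinc finger factor (range 13.6), Relb, an NF-κB subunit (12.4), Pou4f2, a neuronal POU factor (11.9), and Ighmbp2, a helicase (10.2). The first 2 of these were highest in tumor 1, the other two in tumor 2.

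Among the secreted or membrane-bound ligands, Fgf8 is a known MMTV integration target and mammary oncogene. Its signals were 293, 7404, 515 and 483 in tumors 1 to 4 and 487 and 424 in the normal glands. Tumor 2 was 14.4 times as high as the next tumor, while the other tumors differed by no more than 1.76 times and overlapped the normal glands. Fgf4 and Notch4 were the other genes of the MMTV target list with a sense probe (3 of 14 genes), and neither was a member. Notch4 had a range of 5.13 with its highest signal in tumor 1. Fgf4 read 21.0, 11.5, 5 and 14.2, so that 3 of its tumor values were under 20.

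Bmp4, a morphogen of the TGF-β superfamily, had tumor signals of 1617, 3953, 7288 and 685 and normal signals of 3040 and 5796. Its values in tumors 2 and 3 were flagged. The probes of Bmp4 and Ctnna2 were named by their place in the table and carry a different strand code from the other members. Whether they read the mRNA strand of these genes was not tested. Gdnf, a neurotrophic factor, had a range of 8.03 and was highest in tumor 2. Efna2, a membrane-bound ephrin ligand, had a range of 13.0 and was highest in tumor 3.

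Both chemokines among the members were high in tumor 1 alone. Cxcl2, which attracts neutrophils, had signals of 2947, 230, 161 and 190 in the tumors and of 317 and 266 in the normal glands. Ccl3, a macrophage inflammatory protein, had 699, 54.0, 65.2 and 68.4 against 35.3 and 5, the last value being the floor of the table. Tumor 1 was 12.8 times the next tumor for Cxcl2 and 10.2 times for Ccl3, and the 3 other tumors of each gene lay within a factor of 1.43. Without tumor 1 neither probe reached a range of 8.

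Receptors of hormones and cytokines differed in which tumor was highest. Prlr, the prolactin receptor of mammary epithelium, read 7923, 1512, 3922 and 29641 in the tumors and 504 and 544 in the normal glands, so that every tumor was above both glands. Kit, the receptor tyrosine kinase for stem cell factor, had 40956, 8299, 19380 and 3302 in the tumors and 3825 and 2417 in the normal glands. Tumor 4, the highest for Prlr, was the lowest for Kit and lay between the normal glands. Il1r1, an interleukin 1 receptor, had signals of 1177, 762, 154 and 2226 against 128 and 69.9. It was low in tumor 3 but still above both glands.

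Il6st, the shared signalling subunit of interleukin 6 family receptors, had 674, 1257, 172 and 1445 in the tumors and 180 and 83.5 in the normal glands. Csf3r, the granulocyte colony-stimulating factor receptor, was the single member with both normal glands above all tumors. It read 1388, 2514, 233 and 827 in the tumors and 3894 and 4132 in the normal glands. Cd14, a monocyte co-receptor for lipopolysaccharide, read 1608, 2013, 75.4 and 319 in the tumors and 103 and 67.5 in the normal glands. It was high in tumors 1 and 2, whereas tumor 3 lay between the glands. Cd7, a T and NK cell surface protein (range 13.8), Epor, the erythropoietin receptor (9.21), and Cxcr2, a neutrophil chemokine receptor (8.72), completed the group, and each was lowest in tumor 3.

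Of the 5 signalling and cell cycle members, the adaptor Shc3 had the widest range, with 21243, 1044, 2008 and 805.9 in the tumors and 2427 and 2300 in the normal glands. Tumor 1 was 10.6 times as high as the next tumor, and the others were all below both glands. Ccnd1, the G1 cyclin D1, read 1120, 264, 2124 and 1456 in the tumors and 401 and 264 in the normal glands. It was low in tumor 2, where it differed from normal gland 2 by less than the scanner error of the tumor spot. Blk, a B cell kinase of the Src family, had 53.1, 187, 21.6 and 52.4 in the tumors and 106 and 132 in the normal glands. Prkcq, the T cell protein kinase C theta, had 234, 409, 1601 and 121 against 114 and 127, with the high value of tumor 3 flagged. Map2k4, a kinase of the JNK pathway, had a range of 12.3 and was highest in tumor 1.

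Proteases and structural proteins made up 7 members. Mmp11, stromelysin 3 of tumor stroma, had signals of 3273, 295, 304 and 470 in the tumors and of 111 and 118 in the normal glands. Mmp2, gelatinase A, had 762, 1397, 117 and 539 against 565 and 306. The first was set apart by tumor 1, at 6.96 times the next tumor, and the second by tumor 3, at 4.60 times below the next. Krt19, a luminal keratin, read 4861, 7322, 5617 and 41034 in the tumors and 1816 and 2029 in the normal glands. It stood high in tumor 4, by a factor of 5.60. Prtn3, a serine protease of neutrophil granules, had a range of 14.1, and Mcpt4, a mast cell protease, of 11.4. Ctnna2, a catenin of cadherin junctions (13.2), and Dlg4, a synaptic scaffold (8.83), were highest in tumors 3 and 1.

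The 3 membrane transport genes closed the set. Slc2a1, the glucose transporter GLUT1, read 4622, 1035, 7021 and 10243 in the tumors and 344 and 221 in the normal glands, so that the lowest tumor was 3.01 times the higher gland. Abcg1, a cholesterol exporter, had 1493, 366, 111 and 731 against 96.6 and 61.4. Scn7a, a sodium channel gene, had a range of 8.71, from tumor 3 to tumor 2.

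Several marker lists moved with the tumor that was lowest for most members. Of 4 T and NK cell genes with a sense probe, the summed signal was 16790, 33618, 9892 and 12524 in tumors 1 to 4, and 8986 and 5402 in the normal glands. None of these markers was at the floor in any tumor, nor was any of the endothelial, fibroblast and B cell markers that follow. The 4 endothelial genes summed to 2583, 4172, 1355 and 2762, and the 3 fibroblast genes to 1649, 1450, 415 and 1302. The 2 B cell genes summed to 365, 449, 147 and 205. Tumor 3 was thus the lowest tumor in each of these 4 lists, as it was for the members Cd14, Cd7, Cxcr2, Csf3r, Blk and Mmp2 and for 39.6% of the other probes at 20 or more. It was also the lowest tumor for the basal keratin Krt14 (4258, 5193, 1752 and 2658) and the nerve list gene Drd4 (181, 436, 60.7 and 224). Other leukocyte and stroma members did not follow this: Prkcq and Prtn3 were highest in tumor 3, and Ccl3 and Mmp11 were lowest in tumor 2. For Prkcq the tumor 3 spot was flagged, and without it tumor 2 was the highest, at 409, with a range of 3.37. The luminal genes Krt18 and Gata3 summed to 24956, 18374, 21805 and 54008, and were highest in tumor 4, as were Krt19, Prlr and Esr1. The part of these markers in the members' ranges was not tested.

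Counted together with the cell type markers, the gene lists placed few members together: of 21 lists, 9 held at least 1 member. The 105 measured genes of the lists held 13 members, against 43 members among all 404 sense probes. The luminal list held 3 members of 5 measured genes (Krt19, Esr1 and Prlr). Cytokines and growth factors held 2 of 20, nuclear receptors 2 of 8, and matrix and protease genes 2 of 11. Receptor tyrosine kinases (Kit) held 1 of 12, non-receptor kinases (Blk) 1 of 11, cell cycle genes (Ccnd1) 1 of 7, and myeloid genes (Cd14) 1 of 5. Over all measured genes of a list, limma called 2 of 5 luminal genes higher in tumors (Krt18 and Gata3, neither a member), 3 of 20 cytokines and growth factors, 3 of 12 receptor tyrosine kinases and 1 of 8 nuclear receptors, against 14.4% of all 404 sense probes. Of 11 matrix and protease genes it called 1 higher and 1 lower. No member was found among 6 measured immediate early factors, 6 DNA repair genes or 6 apoptosis genes, whose median tumor ranges were 4.11, 2.64 and 2.04 and of which 2, 1 and 2 were called higher.

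The normal glands were not used in choosing the probes. Between the 2 glands, the 42 members with both values above the floor differed by a median of 1.42 times and by at most 2.51 times (Relb), and the corresponding median over 350 sense probes was 1.39. A difference of at least 2 times between glands was seen for 6 of these members (14.3%) and for 10.9% of the sense probes. With 2 glands these values rest on a single pair of arrays. Relative to the tumors, both glands lay inside the tumor range for 27 members and below all tumors for 9, against 42.6% of all sense probes below. The glands were above all tumors for 1 member, against 3.47% of all sense probes. As the probes were chosen by a wide tumor range, nothing is read from these shares.

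Tumors and normal glands were then compared with limma on log2 signals over all 404 sense probes, and 1 member, Slc2a1, passed an adjusted p of 0.05. Of all sense probes, 14.4% were called higher in tumors and 0.248% lower. This background depended on the processing, as the 59 probes called in either direction became 23 to 30 under the other scalings, 1 without tumor 1 and 0 without tumor 4. A wide spread among tumors enters the error of this test, so this count was limited by the choice of the probes. Differences of the 43 members, tumors minus normal glands on the log2 scale, had a median of 0.74, against 0.91 over all sense probes; 29 were above 0 and 14 below. The median over all sense probes was 0.50 under quantile normalization and 0.51 under scaling to the 75th percentile, so levels of change depend on the scaling by that amount. Slc2a1 had a difference of 3.97 ± 0.90 (SE, limma adjusted p = 0.0341). It was no longer past limma's threshold when tumor 1 (adjusted p = 0.106), tumor 4 (0.0668), normal gland 1 (0.103) or normal gland 2 (0.337) was left out.

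Unadjusted p was under 0.05 in limma for 9 members (20.9%), against 38.4% of all sense probes. The 8 besides Slc2a1 were examined after their values had been seen. Prlr had the difference next in size to Slc2a1 among them, 3.54 ± 1.06 (SE, limma adjusted p = 0.0566). Ccl3 was at 3.1 ± 1.21, in part set by the floor in normal gland 2, and Il1r1 at 2.98 ± 1.00. Abcg1 was at 2.58 ± 0.97, Il6st at 2.47 ± 0.90, Mmp11 at 2.41 ± 0.98 and Krt19 at 2.31 ± 0.87. Csf3r was the single one lower in tumors, at -2.15 ± 0.89. Adjusted p of these 8 ranged from 0.0566 to 0.120, so none of them passed.

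Opposite strands of the same genes were measured by 170 AFAS probes, which the choice of the sense probes did not use. All 4 tumors were at 20 or more for 107 of them. Of these, 18 probes of 14 genes (16.8%) also had a tumor range of at least 8 times, close to 14.3% over all 1063 AFAS probes with such signals. The median range was 2.99, against 3.11 over those 1063. The highest tumor was the same as that of the sense probe for 24 of the 107 probes (22.4%), and for 22.5% of 765 AFAS probes of other genes. The AFAS probes of 1 gene share that gene, and are not independent of each other.

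Of the 18 wide AFAS probes, 4 were highest in the same tumor as their sense probe: single probes of Abcg1, Kit, Prkcq and Scn7a. The widest were 2 probes of Slc2a1, at 332, 287, 7044 and 137 and at 184, 59.8, 2228 and 62.1 in tumors 1 to 4. In both the high value of tumor 3 was flagged, and without it the ranges fell from 51.4 and 37.2 to 2.42 and 3.07. An AFAS probe of Esr1 had no flagged spot and read 415, 904, 27.9 and 33.1, with 363 and 561 in the normal glands. It was highest in tumor 2 and near its lowest in tumor 4, whereas the sense probe of Esr1 was highest in tumor 4. Tumor 2 was the highest for 9 of the 18 wide AFAS probes, and tumor 4 for 0 of them.

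Further wide AFAS probes without flagged spots belonged to Abcg1 (range 8.12), Bmp4 (20.6), Cxcl2 (17.9), Ikzf1 (17.0), Il1r1 (9.89), Kit (8.68), Mmp11 (17.3) and Scn7a (19.3). Those with a flagged spot belonged to Ikzf1 (11.3), Krt19 (13.6), Mmp11 (11.2), Pou4f2 (28.4 and 19.2) and Prkcq (23.8). Without flagged spots 12 of the 18 kept a range of at least 8.

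Both strands of the same stretch were measured for 21 member genes, by 22 AFAS probes that shared 19 to 60 bases with the reverse complement of the sense probe. In 11 of these, from 10 genes, all tumors were at 20 or more, and the range was 1.35 to 7.11, so that none reached 8 times. The highest tumor was the same on both strands for 6 of the 11. The same share for overlapping probes of other genes was not computed, so nothing about the members is read from it. For the Cxcl2 stretch shown above, the AFAS probe read 4325, 887, 754 and 609 in tumors 1 to 4, and both strands were highest in tumor 1. For the Ccnd1 stretch it read 611, 1118, 417 and 482, and its highest spot, in tumor 2, was flagged and lay in the tumor where the sense probe was lowest.

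For the stretches of Msx2, Prtn3 and Epor, the AFAS signals were low. They were 27.1, 11.6, 30.2 and 45.6 for Msx2, where the sense signal of tumor 4 was 6498. For Prtn3 they were 36.5, 14.3, 44.9 and 5, and for Epor 24.5, 5, 23.3 and 5.51. In these 3 stretches at least 1 tumor was thus under 20 on the antisense strand. No AFAS probe of a member gene was called by limma, against 0.457% of all 1749 AFAS probes called in either direction, while 38 of the 170 (22.4%) had an unadjusted p under 0.05, against 16.2% of all AFAS probes, and the methods' t-test called 0 after adjustment.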

How the data were processed

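Total RNA was labelled with Cy3 and hybridised to 1-colour Agilent arrays, 1 per sample, and the spots were read with Agilent Feature Extraction 9.1.3.1 per the file headers. The authors deposited intensities: the processed signal multiplied by 1 factor per array (0.957, 0.822, 1.16 and 1.05 for tumors 1 to 4) and set to a floor of 5. Rows of this table carry no probe name and were matched to named probes on all 4 tumor arrays, allowing for 3-digit rounding in the scans (2153 of 2156 rows, all 404 sense and 1749 of 1752 AFAS probes). The factors set the tumor levels relative to each other and so enter every range, and the floor alters differences of dim probes. Per the methods, spots without a clear difference from background were also set to the floor. Between 0.79% and 12.8% of the tumor values and 24.3% to 31.1% of the gland values were at the floor.

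Genes were named from RefSeq accessions (assembly GRCm38.p6). The probes of Ikzf1, Abcg1, Ctnna2, Prkcq, Bmp4 and Dlg4 were named by their place in the table, and those of Ctnna2 and Bmp4 carry another strand code. No coordinates are given because the probes were not placed on a genome.

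Groups came from the sample titles. The comparison of 4 tumors with 2 normal glands was fitted in R 4.3.3 by limma 3.58.1 on log2 signals without covariates, with two-sided moderated tests (eBayes after lmFit) over all probes of a strand, with Benjamini-Hochberg adjustment and a threshold of 0.05. On simulated data with 100 of 404 sense probes changed by 3 on the log2 scale it recovered 91.9% of them with 3.69% false calls. With 200 of 1749 AFAS probes changed, 80.15% were recovered with 4.56% false calls. The median log2 difference over all measured sense probes was 0.91, and recovery at that size was not tested. The changed probes were drawn from all probes of a strand. Recovery for the members alone, which were chosen for a wide spread among tumors, was not tested either. As the labels do not say that samples came from separate mice, p-values measure only the spread between these samples. Ranges and counts came from pandas 2.3.3, scipy 1.17.1 and numpy 2.4.6 under Python 3.11.15.

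The members, marker lists and gene lists were chosen with earlier results of these data known. Members are named, with the signal of every array for those among the 12 widest and for those in a list; some items covered by this rule are not reported here. Signals of other members named in the tests or with flagged spots were added after their values had been seen. AFAS probes are named where all tumors were at 20 or more with a range of at least 8. Alternatives were other scalings, the scanner's signal, normexp background correction with an offset of 50, other minimum values, other tests, the replicate number as a block and each array left out. Leaving out spots that the software flagged as outliers, and genes not linked by accession, was added after seeing the data.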

Additional observations from a re-analysis of the deposited data

Results flagged for a closer look

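The 11 AFAS probes considered here lie over the same stretch as a member's sense probe. They were chosen by shared bases and by all tumors being at 20 or more, not by their tumor range. In 2 of them, 1 tumor stood so far from the other 3 on the log2 scale that its gap, as a share of the whole tumor range, exceeded Dixon's critical value for groups of 4, which chance gives in about 1 in 20 such groups. The AFAS probe of Cd7 read 744 in tumor 3 and 201, 189 and 189 in tumors 1, 2 and 4, with a gap of 0.955 of the range. The sense probe of Cd7 was lowest in tumor 3. The AFAS probe of Csf3r read 41.5 in tumor 3 and 108, 100.2 and 119 in tumors 1, 2 and 4, with a gap of 0.836. Its sense probe was lowest in tumor 3 as well. Neither AFAS probe had a spot flagged by the scanner software. This check on the AFAS probes was chosen after their values had been seen.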

How the results depend on the processing

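The number of sense probes that met the rule was 43, 24 with normexp background correction, 29 at a minimum of 100, and 48 on the processed signal as scanned, of which 37 were among the 43. Under scaling to the 75th percentile, to the median and by quantiles it was 40, 38 and 37, of which 36, 33 and 34 were among the 43. Leaving out a tumor gave 16 to 30: 29 without tumor 1, 28 without tumor 2, 16 without tumor 3 and 30 without tumor 4. The highest tumor was the same for at least 42 of the 43 members under all 5 other scalings or signals, and the lowest for at least 39. Wide AFAS probes of member genes numbered 18, and 21 as scanned, 11 with normexp, 10 with a minimum of 100, 12 without flagged spots and 11 to 13 with a tumor left out (11 without tumor 3). Only 1 member passed limma's threshold. This count was 3 (Il1r1, Prlr and Slc2a1) with a filter at 100 on 2 arrays and with trended robust variances, 2 (Hoxb9 and Slc2a1) without flagged spots, 0 in the methods' t-test after adjustment and 1 (Csf3r) at its unadjusted threshold. With an array left out it was 0 to 7: 4 without tumor 2, 7 without tumor 3 and 0 without tumor 1, tumor 4 or either gland. Calls over all 404 sense probes moved as well, from 59 to 48 and 89 without tumors 2 and 3, to 1 and 0 without tumors 1 and 4, and to 14 and 0 without normal glands 1 and 2. They were 23, 30 and 24 under scaling to the 75th percentile, to the median and by quantiles, and 0 with the block. For Slc2a1 the log2 difference ranged from 2.99 to 4.65 and the adjusted p from 0.0115 to 0.337 over 14 alternatives, 9 of them past the threshold. No AFAS probe of a member gene was called, but 1 was under quantile normalization (Gdnf), 0 to 1 with an array left out (Pou4f2 without tumor 1), and 23 (13.5%) at the unadjusted threshold of the methods' t-test, against 9.09% of all AFAS probes. Of the 43 members, 15 changed the sign of the tumor difference in at least 1 of 14 alternatives, and none of the 9 with an unadjusted p under 0.05 did. With the replicate number as a block, 0 members and 0 AFAS probes were called, and Slc2a1 had a limma adjusted p of 0.0916. In that fit tumors 3 and 4 have no gland of the same number. The difference thus rests on tumors 1 and 2, and little is left to estimate the spread. As 0 of all 404 sense and 0 of all 1749 AFAS probes were called there, nothing about the members is read from these counts. Same-numbered samples did not deviate together (r = 0.023 and -0.023 over sense probes). With 2 glands the gland deviations mirror each other, so this check cannot decide whether the numbers pair the samples. Where a count moved, the cause was not tested. Signals near the floor and a single array per tumor limit what these ranges show.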
